A study of Homo sapiens with 9 samples.

Results

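Across SH-SY5Y cells, 1263 of 99429 merged DNA:RNA hybrid regions (1.27%) carried a peak in all 3 libraries of control-hairpin cells and in none of the 3 libraries of TDP-43 knockdown cells. These shNC-only regions were found by merging touching or overlapping peaks of the 6 untreated libraries on chromosomes 1 to 22 and X, where 1 bp of peak sufficed for a library to count. Absence therefore means that no peak passed the peak caller's threshold, not that hybrids were shown to be missing. The rule used the comparison of shTDP43 with shNC, so every count and length from that comparison is given below as a description, without a test.

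SH-SY5Y is an established human neuroblastoma line, and both groups were transduced with a short hairpin in a lentiviral U6 vector. The groups were shTDP43, with a hairpin against TDP-43 (3 untreated libraries and 1 library treated with RNase H for 6 h), and shNC, with a control hairpin (likewise 3 and 1). Puromycin selected both lines, at 2 µg/mL during the first 2 weeks and at 1 µg/mL from then on. Hybrids were recovered by DRIP-seq, in which nucleic acid cut with 5 restriction enzymes was immunoprecipitated with the antibody S9.6 from 6 µg of material and sequenced. The study's title concerns the R-loop landscape after lasting loss of TDP-43. The labels do not say whether replicates came from separate transductions, or whether the lines were clones or pools. An input library that the labels name was not analysed here. In bulk libraries, hybrids in fewer cells and fewer hybrids per cell cannot be told apart.

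An R-loop forms when nascent RNA pairs with its template strand and displaces the other DNA strand. R-loops are common over CpG-rich promoters, near transcription ends and in the bodies of transcribed genes. RNase H degrades the RNA strand of a hybrid, so a treated library serves as a control for the antibody. TDP-43, encoded by TARDBP, is a nuclear RNA- and DNA-binding protein that prefers UG repeats in RNA and represses cryptic exons, and its loss from the nucleus marks most cases of amyotrophic lateral sclerosis (ALS). Hybrid peaks measure neither TDP-43 protein nor TARDBP transcript, so these lists hold no check of the knockdown.

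The longest and strongest shNC-only regions included several promoters and a pair of microRNA genes, whose sequences are shown because they say what DNA these regions contained. Sequences are from RefSeq (GRCh38.p14, which has the chromosome coordinates of hg38). The mature microRNAs below are written 5′ to 3′ with the seed, bases 2 to 8, in capitals. MIR34A lay in the region chr1:9148844-9152774, and MIR1247 in the region chr14:101554982-101563393 beside DIO3.
hsa-miR-34a-5p: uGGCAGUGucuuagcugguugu
hsa-miR-34a-3p: cAAUCAGCaaguauacugcccu
hsa-miR-1247-5p: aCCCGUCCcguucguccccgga
hsa-miR-1247-3p: cCCCGGGAacgucgagacuggagc
All 4 seeds differed. Both hairpins lay on the minus strand.

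The next sequences are the 250 bases before the RefSeq start of 4 genes whose promoter lay wholly inside an shNC-only region. DIO3 and BNC2 were in the longest such regions, and ATXN1 and HEG1 in the strongest. Each is written 5′ to 3′ in the direction of transcription, with CG dinucleotides in capitals. The windows are chr14:101561245-101561494 on the plus strand for DIO3, and, on the minus strand, chr9:16870671-16870920 for BNC2, chr6:16760185-16760434 for ATXN1 and chr3:125055998-125056247 for HEG1.
DIO3: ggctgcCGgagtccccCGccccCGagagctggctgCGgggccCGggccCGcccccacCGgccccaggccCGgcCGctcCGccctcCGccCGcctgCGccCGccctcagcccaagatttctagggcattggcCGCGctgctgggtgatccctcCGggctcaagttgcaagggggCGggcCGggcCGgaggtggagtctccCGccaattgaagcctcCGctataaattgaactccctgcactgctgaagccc
BNC2: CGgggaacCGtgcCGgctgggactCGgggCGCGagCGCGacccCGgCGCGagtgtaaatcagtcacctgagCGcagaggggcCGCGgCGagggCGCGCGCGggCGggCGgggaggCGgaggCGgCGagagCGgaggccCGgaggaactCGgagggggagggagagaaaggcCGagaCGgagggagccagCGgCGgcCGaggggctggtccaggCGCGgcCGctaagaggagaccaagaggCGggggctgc
ATXN1: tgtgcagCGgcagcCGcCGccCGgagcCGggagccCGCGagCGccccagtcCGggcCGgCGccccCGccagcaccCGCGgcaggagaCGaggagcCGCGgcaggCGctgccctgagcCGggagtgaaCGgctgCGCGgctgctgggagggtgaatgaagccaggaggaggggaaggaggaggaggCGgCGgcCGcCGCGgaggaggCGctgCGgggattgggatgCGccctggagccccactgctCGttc
HEG1: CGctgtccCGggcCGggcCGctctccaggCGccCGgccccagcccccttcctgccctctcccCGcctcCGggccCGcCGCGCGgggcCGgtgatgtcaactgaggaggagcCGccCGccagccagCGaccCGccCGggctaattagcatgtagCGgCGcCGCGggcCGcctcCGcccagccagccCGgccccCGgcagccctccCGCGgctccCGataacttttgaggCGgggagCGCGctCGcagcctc
These stretches held 22 CG dinucleotides in DIO3, 36 in BNC2, 31 in ATXN1 and 33 in HEG1.

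In all, 65 promoter windows, each from 250 bases before to 50 bases after a RefSeq start, lay wholly inside 48 shNC-only regions, and 44 protein-coding symbols were among them. The median GC content of the 65 windows was 65.3% (interquartile range 61.7 to 73.0) with a median of 25 CG dinucleotides. In the 12179 windows wholly inside regions present in all 6 libraries the medians were 67.0% and 28. In the 19268 windows outside every merged region they were 49.7% and 5. The windows in shNC-only regions thus had a base composition near that of promoters with hybrids in every library. The hexamer TGTGTG or its reverse complement CACACA, the DNA form of the UG repeat, was found in 12 of the 65 windows (18.5%, 95% Wilson interval 10.9 to 29.6). It was found in 11.9% of windows in regions of all 6 libraries and in 17.2% of all 34961 windows. A run of 4 G or 4 C (GGGG or CCCC) was found in 65 of 65 windows, against 98.0% of windows in regions of all 6 libraries and 89.7% of all windows. A match is a description of the letters only.

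The 6 lists differed in depth. The background pileup read back from the peak lists, a measure of relative depth, was 1.05, 1.68 and 1.94 in shTDP43 replicates 1 to 3, against 2.01, 1.93 and 1.62 in shNC replicates 1 to 3. The lists held 57204, 69642 and 70016 peaks in shTDP43, against 73353, 69453 and 70819 in shNC. Replicate 1 of shTDP43 was thus the shallowest, and the shortest list. The treated libraries had background pileups of 0.991 in shTDP43 and 0.936 in shNC, with 8868 and 15504 peaks. Of 10 adrenergic marker loci of neuroblastoma, 9 carried peaks in all 6 untreated libraries and TH in none, as did 5 of 8 mesenchymal marker loci, where peaks are not a measure of expression.

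Of the 32807 regions present in all 3 shNC libraries, 3.85% were absent from all 3 shTDP43 libraries. The mirror pattern, present in all 3 shTDP43 libraries and in no shNC library, held 257 of 26467 regions (0.971%). The 2 counts did not keep this order once shTDP43 replicate 1 was left out. There were then 1465 regions with a peak in all 3 shNC libraries and in neither other shTDP43 library, and 1708 with a peak in both other shTDP43 libraries and in no shNC library. The first of these counts asked for a peak in 3 libraries and the second in only 2, so they are not like for like. Leaving out shTDP43 replicate 2 or 3 raised the shNC-only count to 2273 and 2537. Leaving out shNC replicate 1, 2 or 3 raised it to 2602, 3172 and 3459. With 2 libraries against 2, chosen after seeing the data by leaving out shTDP43 replicate 1 and shNC replicate 1, 2 or 3, the shNC-only pattern held 2927, 3578 and 3889 regions and the mirror pattern 3227, 2521 and 2481. The order of the counts therefore depended on which libraries were counted, and no excess of lost over gained hybrids is read from them. All of the 20 longest or strongest regions described below met the rule in each of these leave-out settings. Leaving out a library loosens the rule, so this was largely fixed in advance and is no check of these regions.

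**Figure D1:**
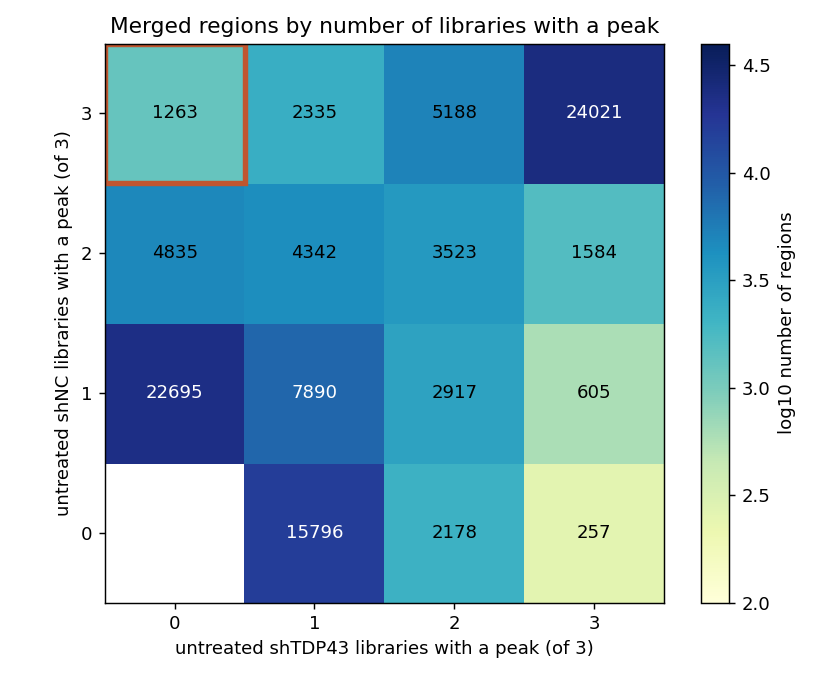
Number of merged regions by how many of the 3 untreated shTDP43 libraries (horizontal axis) and of the 3 untreated shNC libraries (vertical axis) had a peak, coloured by the log10 number. The outlined cell holds the 1263 shNC-only regions. The opposite corner, 3 shTDP43 and 0 shNC libraries, holds 257, and 24021 regions were present in all 6.

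The presence patterns were graded. A further 2335 regions were present in all 3 shNC libraries and in 1 shTDP43 library, 5188 in 2 and 24021 in all 6. Of the 2335, shTDP43 replicate 1 was the library with the peak in 192, replicate 2 in 953 and replicate 3 in 1190. Of the 5188, the missing library was shTDP43 replicate 1 in 4350, replicate 2 in 472 and replicate 3 in 366. On the other side of the rule, 4835 regions had peaks in 2 shNC libraries and no shTDP43 library, and the missing shNC library was replicate 1 in 1077, replicate 2 in 1731 and replicate 3 in 2027. Just outside the rule, the shTDP43 peak that kept a region out overlapped it by at least 280 bp, with a median of 479 bp.

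Most shNC-only regions were short. Their widths ran from 305 to 8412 bp with a median of 950 bp (interquartile range 634 to 1372), against 1188 bp for regions of 3 shNC and 1 shTDP43 library and 3541 bp for regions of all 6. Only 126 exceeded 2 kb and 40 exceeded 3 kb. Together they spanned 1.43 Mb of the 185.3 Mb under merged regions (0.771%). Within them, shNC replicates 1, 2 and 3 had a median of 547, 538 and 468 bp under peaks per region. The shallower shNC replicate 3 had the least, and it held the longest stretch in 317 regions, against 506 for replicate 1 and 440 for replicate 2.

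They also ranked below the middle of each shNC list in strength. The peak caller's −log10 q values, which are the authors' and belong to single peaks, had medians of 4.26, 4.41 and 3.46 in shNC replicates 1 to 3 at these regions. The medians of all peaks in those lists were 5.60, 5.93 and 5.08. The median summit pileup was 12, 12 and 10 fragments at these regions, against 14, 14 and 12 over each list. Taking the weakest of the 3 shNC values for each region, 1015 regions reached a −log10 q of 2, 103 reached 5 and 5 reached 10. The highest was 11.98, and the median was 2.71, against 2.25 for the mirror regions. In 1078 regions (85.4%) the 3 shNC libraries shared at least 1 common base, over a median of 313 bp, and in 185 the peaks only chained together.

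Many lay close to a called shTDP43 hybrid. The nearest shTDP43 peak was within 1 kb of 540 regions (42.8%), between 1 and 10 kb of 494, between 10 and 100 kb of 181 and beyond 100 kb of 48. The median gap was 1539 bp, against a median of 709 bp from the mirror regions to the nearest shNC peak. The 229 regions more than 10 kb from any shTDP43 peak had a median width of 1101 bp, against 885 bp for those within 1 kb. A promoter window of a coding gene was overlapped by 10.9% of the distant regions (95% Wilson interval 7.50 to 15.6) and by 2.22% of the near ones (1.28 to 3.84). Most regions of either kind were thus away from promoters, and the difference between the kinds was not tested. Wilson intervals here and below cover counting error only.

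Like merged regions in general, most shNC-only regions lay in the spans of protein-coding genes. A coding gene span was overlapped by 77.1% (974 regions, interval 74.7 to 79.4), a long non-coding RNA alone by 7.44% (94 regions) and neither by 15.4% (195 regions). Of all merged regions, 4.44% overlapped a long non-coding RNA alone and 12.0% neither. Of mirror regions, 3.50% and 15.2% did. The share at long non-coding RNAs alone was thus above the general share, without a test. The share in coding spans was 83.6% of all 99429 merged regions, 89.5% of regions of all 6 libraries and 81.3% of mirror regions. The 1 kb windows at either end of a coding gene were overlapped by 12.7% of shNC-only regions (161, interval 11.0 to 14.7), 16.96% of all merged regions, 43.3% of regions of all 6 libraries and 5.45% of mirror regions. The promoter windows were overlapped by 4.43% (56, interval 3.43 to 5.71), 8.59% of all merged regions, 28.1% of regions of all 6 libraries and 0 of 257 mirror regions, which allows a share of up to 1.17%. Regions of all 6 libraries were wider, so the comparison was repeated within the shNC-only interquartile widths, a choice made after seeing the data. The 631 shNC-only and 1442 shared regions of that width overlapped a coding gene end in 12.7% and 28.2%, and a promoter window in 3.49% and 19.4%. In that band the share in coding spans was 76.5% and 76.7%. Over all 20601 merged regions of those widths the shares were 11.1% at a gene end, 4.07% at a promoter window and 81.6% in a coding span. The shNC-only regions were thus near the general share at gene ends and promoters for their width, and below the regions of all 6 libraries, without a test.

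RNase H-treated libraries were not used by the rule, and they had a peak at few of these regions. A treated shTDP43 peak overlapped 17 of the 1263 regions (1.35%, interval 0.842 to 2.15) and a treated shNC peak 25 (1.98%, interval 1.34 to 2.91), with 12 regions overlapped by both. With a treated shTDP43 peak, the shares were 2.57% of regions of 3 shNC and 1 shTDP43 library, 7.60% of regions of all 6 libraries and 3.82% of all merged regions. With a treated shNC peak, they were 3.64%, 13.1% and 5.93% of the same sets. Held to the same widths, treated shTDP43 peaks overlapped 1.11% of shNC-only and 13.7% of shared regions. Treated shNC peaks overlapped 2.06% of shNC-only and 15.7% of shared regions of those widths. Over all merged regions of those widths the shares were 4.25% with a treated shTDP43 peak and 5.41% with a treated shNC peak. With 1 treated library per genotype, both shallower than every untreated library, this was not tested. Neither treated library had a peak in any of the 48 regions holding a whole promoter window, which allows a share of up to 6.25%. Nor did either in the 20 longest or strongest regions. At the 17 regions with a treated shTDP43 peak, antibody signal was called in treated shTDP43 material although the untreated shTDP43 lists had none. In PLXNA4, the region chr7:132416249-132417609 had 1.04 kb under treated shTDP43 peaks and 1.33 kb under treated shNC peaks, against 1.36, 0.739 and 0.310 kb in untreated shNC replicates 1 to 3. The treated lengths there lay within the range of the untreated shNC lengths.

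The longest single region covered DIO3, the imprinted gene of the deiodinase that inactivates thyroid hormone, together with the opposite-strand transcript DIO3OS and MIR1247. In chr14:101554982-101563393, shNC replicates 1, 2 and 3 had 6.65, 7.43 and 6.54 kb under peaks (6.87 ± 0.483 kb, SD, n = 3), and every shTDP43 library had 0 by the rule. The summit pileup was 24, 30 and 20 fragments in the 3 shNC libraries, above the list medians of 14, 14 and 12. The nearest shTDP43 peak was 95.9 kb away. The promoter windows of DIO3 and DIO3OS both lay inside it, so the region spanned a pair of divergent starts.

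Other long regions also sat on isolated CpG-rich starts. At BNC2, a zinc finger gene, chr9:16869160-16874532 had 4.30, 4.01 and 2.20 kb in shNC replicates 1 to 3, and the nearest shTDP43 peak lay 259.9 kb away. At PTGER2, which encodes a prostaglandin E2 receptor, chr14:52313538-52316840 had 3.30, 2.62 and 2.15 kb, with a gap of 234.7 kb. At CD9, a tetraspanin gene, chr12:6200381-6204064 had 2.49, 3.36 and 1.83 kb, with a gap of 119.5 kb. The 3 shNC libraries differed by less than 2-fold in length at BNC2, PTGER2 and CD9, and the shTDP43 lists had no peak for more than 100 kb around them.

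The strongest region was at ATXN1, whose polyglutamine expansion causes a spinocerebellar ataxia. In chr6:16759597-16761516 the −log10 q was 14.9, 16.1 and 11.98 in shNC replicates 1 to 3 and the summit pileup 27, 28 and 22 fragments. The length was 1.88, 1.92 and 1.49 kb, and the nearest shTDP43 peak was 400.8 kb away. At HEG1, a transmembrane protein gene of heart and vessel development, chr3:125054688-125056614 had −log10 q values of 18.7, 11.6 and 12.9 and lengths of 1.93, 1.21 and 1.78 kb. At SYT9, which encodes a synaptotagmin of vesicle release, chr11:7251052-7253248 had 2.20, 2.20 and 0.922 kb and −log10 q values of 7.97, 12.0 and 13.3. The zinc finger gene ZNF467 had summits of 33, 31 and 23 fragments in a shorter region of 1.03, 1.13 and 0.554 kb (chr7:149770962-149772086), whose nearest shTDP43 peak was 2.13 kb away. Strength and isolation thus did not go together at ZNF467 as they did at ATXN1, HEG1 and SYT9.

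Several long regions lay in gene bodies or outside genes. EVC2, a ciliary gene of hedgehog signalling, had 3.40, 3.17 and 2.41 kb in shNC replicates 1 to 3 at chr4:5532031-5536181. HIVEP3, a zinc finger gene, had 4.40, 3.81 and 0.676 kb at chr1:41712064-41716459, so its length rested on replicates 1 and 2. The region chr5:174328283-174334693, outside any coding gene, had 5.73, 4.02 and 2.81 kb. HIVEP3 showed the widest spread between shNC libraries among the 20 regions.

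**Figure D2:**
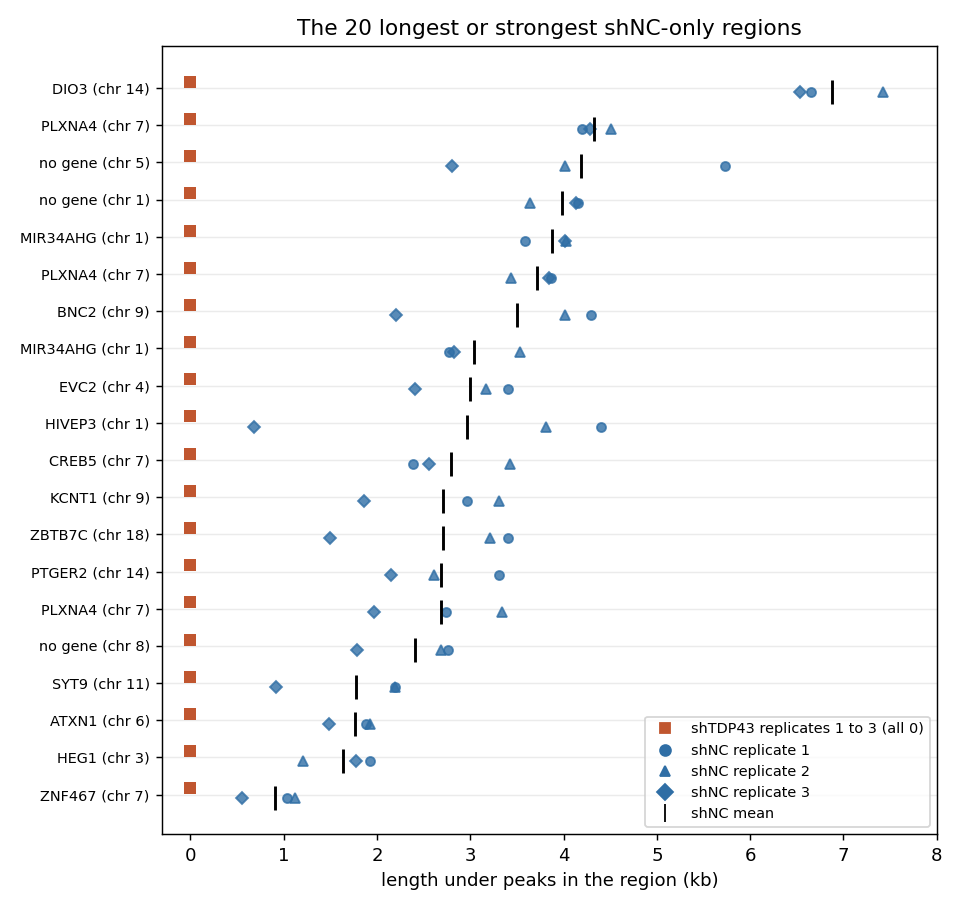
Length under peaks (kb, horizontal axis) in the 20 longest or strongest shNC-only regions, one per line and named by the gene they overlap. Squares at 0 stand for all 3 shTDP43 libraries, which the rule fixes, and circles, triangles and diamonds for shNC replicates 1, 2 and 3, with a bar at their mean. The DIO3 region lies at 6.54 to 7.43 kb and the others reach at most 5.73 kb.

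Some shNC-only regions came in runs. Linked over gaps of up to 50 kb, 386 of the 1263 (30.6%) fell in 155 groups of 2 or more, of which 14 held at least 4. The others, 877, stood alone. The same grouping was not made for other sets of regions, so it is not known whether this share is particular to these.

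A run of 7 lay at MIR34A, the gene of a p53-induced microRNA that restrains the cell cycle and lies in a chromosome arm often deleted in neuroblastoma. Within chr1:9148844-9199302, 7 of the 9 regions present in all 3 shNC libraries had no shTDP43 peak, and 5 of the 7 overlapped the host transcript MIR34AHG (chr1:9148011-9182338). Over the whole stretch, 0.403, 6.74 and 8.02 kb lay under peaks in shTDP43 replicates 1 to 3, against 32.2, 29.0 and 31.7 kb in shNC replicates 1 to 3. The genotypes did not overlap, and in every shTDP43 library most of the stretch was bare. Both follow in part from the rule, since the stretch runs between shNC-only regions, where shTDP43 is fixed at 0. The region with the hairpin itself had 2.77, 3.53 and 2.83 kb in shNC, with −log10 q values of 13.4, 9.67 and 12.0. The longest region of the run, chr1:9194299-9199302, lay beyond the host transcript and had 4.16, 3.64 and 4.14 kb. Treated libraries had 0 kb in shTDP43 and 0.700 kb in shNC over the stretch. The shTDP43 peaks that remained in replicates 2 and 3 were in the interior of MIR34AHG and around its higher-coordinate end, where shNC peaks were longest.

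**Figure D3:**
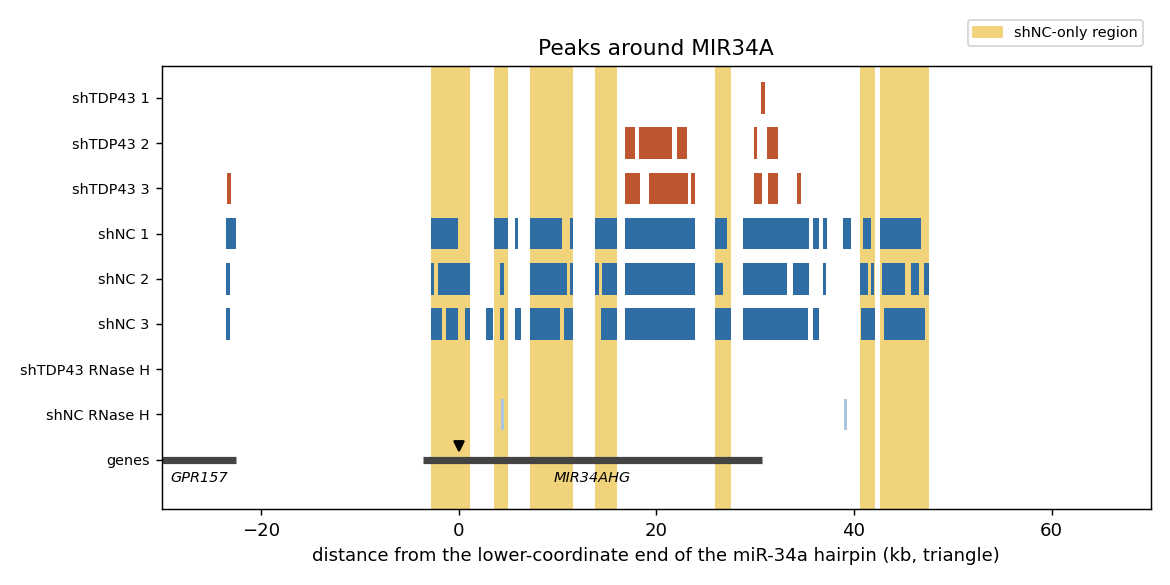
Peaks (bars) around the MIR34A hairpin (triangle) in each library, against distance in kb from the hairpin's lower-coordinate end, with shNC-only regions shaded and genes drawn at the bottom. The 7 shaded regions hold shNC bars and no bar of an untreated shTDP43 library, and the untreated shTDP43 bars lie outside the shading, most of them in replicates 2 and 3.

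Of the 3 microRNA hairpins that shNC-only regions overlapped, out of 1558 in the table and 503 in any merged region, MIR34A and MIR1247 lay inside. The third, MIR3125 near TRIB2, was touched at its edge with the mature sequence outside.

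PLXNA4, which encodes a plexin receptor for semaphorins in axon guidance, held more shNC-only regions than any other gene. Of the 40 regions in its span (chr7:132123340-132648688, minus strand) present in all 3 shNC libraries, 27 had no shTDP43 peak, 6 had 1, 3 had 2 and 4 were present in all 6. Peaks covered 11.5, 19.1 and 22.2 kb of the gene in shTDP43 replicates 1 to 3, against 127, 104 and 105 kb in shNC replicates 1 to 3. The groups did not overlap, and the highest shTDP43 library was far below the lowest shNC library. The regions took up 33.3% of the mean shNC length. Outside them the means were 17.6 ± 5.53 kb in shTDP43 and 74.6 ± 9.64 kb in shNC (SD, n = 3 each). Length outside the regions was thus also lower in shTDP43. It comes from the 6 lists that the rule used, in a gene picked by its number of shNC-only regions, and was not tested. A further 48 regions in PLXNA4 had a peak in 1 shNC library and no shTDP43 library, and 32 in 2.

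Along PLXNA4, the regions fell in a run of 16 at the 3′ end (chr7:132117655-132256425), of which 15 overlapped the gene and 1 lay just beyond it, and in a run of 11 nearer the start (chr7:132416249-132554673). In the run of 16, 3.76, 7.48 and 9.11 kb lay under shTDP43 peaks, against 66.8, 54.9 and 53.7 kb under shNC peaks. In the run of 11, the values were 0, 0.754 and 0 kb in shTDP43, against 22.8, 19.1 and 16.2 kb in shNC. The run nearer the start was almost bare in shTDP43, in part by the rule, which fixes 0 inside its shNC-only regions. The only region between the runs, chr7:132316576-132321668, had 4.20, 4.51 and 4.28 kb in the shNC replicates. Treated libraries had 2.80 kb in shTDP43 and 10.7 kb in shNC over the gene. Chromosome 7 held 94 shNC-only regions, or 67 (3.15% of its regions in all 3 shNC libraries) without those of PLXNA4.

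**Figure D4:**
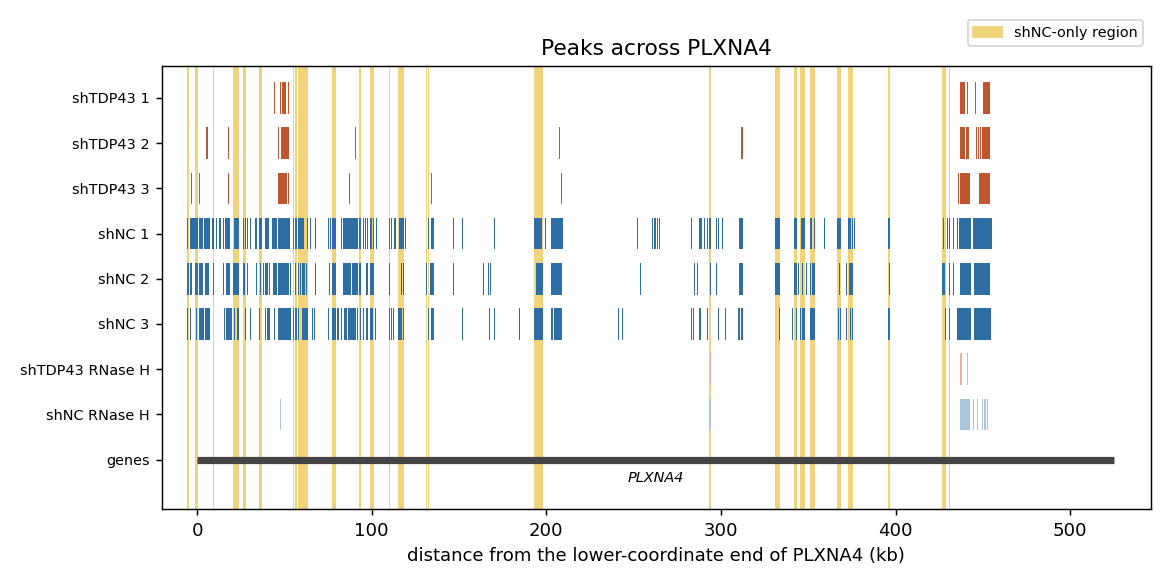
Peaks (bars) across PLXNA4 in each library, against distance in kb from the gene's lower-coordinate end, which is its 3′ end, with shNC-only regions shaded. The shaded regions gather in a run of 16 at the left and a run of 11 at the right, where shNC bars are dense and the untreated shTDP43 libraries have few bars. The block just right of the second run has bars in all 6 untreated libraries.

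Among coding genes with any merged region, 797 of 13908 (5.73%) held an shNC-only region, 664 of them 1, 91 of them 2 and 42 (0.302%) at least 3. The share grew along with gene length, with 2.81% of genes up to 50 kb, 9.31% of genes of 50 to 200 kb and 17.5% of genes over 200 kb. The median length was 89.2 kb for genes holding a region and 29.8 kb for all genes with a merged region. The 42 genes with at least 3 had a median length of 235.3 kb. In genes over 50 kb, split into 5 equal parts from start to end, part 1 held 22.9% of 620 placements (interval 19.8 to 26.4) and part 5 held 25.3% (22.1 to 28.9). For regions of all 6 libraries part 1 held 31.9% and part 5 held 26.5% of 9130 placements. The share of a chromosome's regions in all 3 shNC libraries that were shNC-only ran from 2.03% on chromosome 16 to 5.76% on chromosome 18.

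In the 42 genes with at least 3 such regions, hybrid length was also lower in shTDP43 away from those regions. Outside them, every shTDP43 library had less length under peaks than every shNC library in 37 of 42 genes, and the median ratio of the shTDP43 to the shNC mean was 0.574. Among all 11640 coding genes with at least 1 kb in shNC, 1615 (13.9%) had non-overlapping lower shTDP43 lengths over the whole span. Their median ratio over all 11640 genes was 0.918. Among the 819 of these genes over 200 kb, the share was 30.4% and the median ratio 0.780. Whole spans include any shNC-only regions, so these values are not like for like with the 37 of 42. The 42 genes were chosen by the same libraries, so nothing is read from this count. The part of the shallow shTDP43 replicate 1 in it was not tested. YEATS2, a gene for a histone acetylation reader, was the exception in direction, with 25.2 kb in shTDP43 and 24.8 kb in shNC outside its 3 regions.

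**Figure D5:**
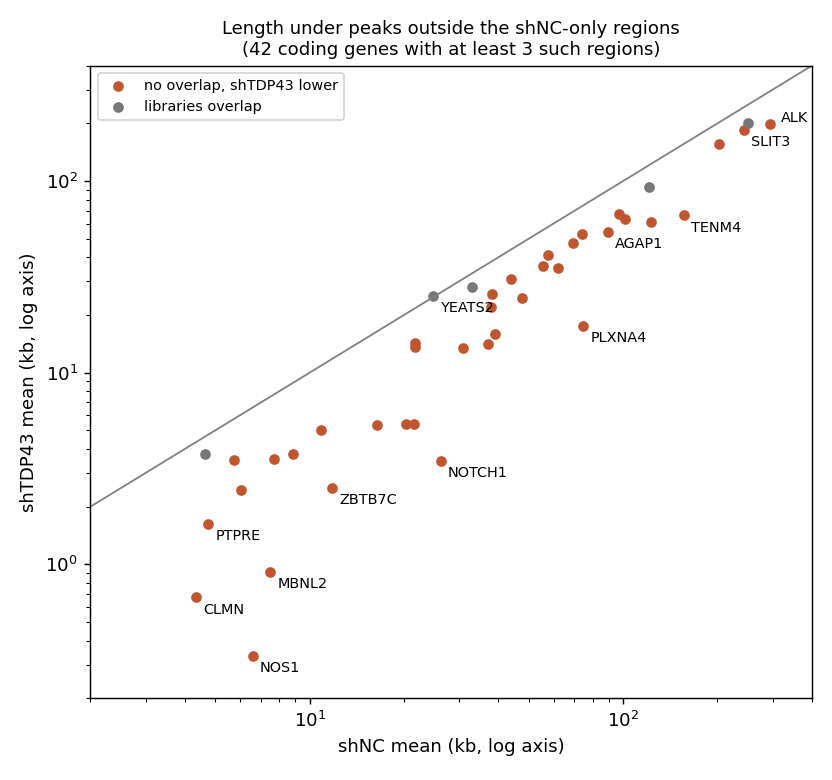
Mean length under peaks outside the shNC-only regions in the 42 coding genes with at least 3 of them, with the shTDP43 mean (n = 3) on the vertical and the shNC mean (n = 3) on the horizontal axis, both in kb on log axes, and the line of equality. Of the 42 genes, 41 lie below the line and YEATS2 just on it, and coloured points mark the 37 genes whose libraries do not overlap.

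Adhesion and signalling receptors were among the genes with the most regions. TENM4, a teneurin that links neurons across contacts, held 10, with 46.5, 69.1 and 83.1 kb under peaks in shTDP43 replicates 1 to 3, against 177, 151 and 168 kb in shNC replicates 1 to 3. ALK, the receptor tyrosine kinase of neuroblastoma, held 7, with 156, 199 and 241 kb in shTDP43 and 327, 275 and 294 kb in shNC. Both genes had hybrids over long stretches in all 6 libraries, and the shNC-only regions were short pieces among them. PTPRE, a receptor-type tyrosine phosphatase, held 5 of the 6 regions present in all 3 shNC libraries, with 1.57, 2.14 and 1.19 kb in shTDP43 and 9.84, 7.56 and 6.45 kb in shNC. The treated libraries had 0.931 kb in shTDP43 and 0.310 kb in shNC in PTPRE, all of it inside the shNC-only regions. OPRM1, the mu opioid receptor gene, held 3, with 2.16, 2.20 and 2.94 kb in shTDP43 and 7.31, 7.29 and 9.56 kb in shNC. At PTPRE and OPRM1, by contrast with TENM4, little hybrid length was called in untreated shTDP43 anywhere in the gene.

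NOTCH1, the receptor of cell-to-cell Notch signalling, had a run at its start. Its 3 regions and a neighbouring region over NALT1, a non-coding transcript that starts beside NOTCH1 on the opposite strand, were the only regions of all 3 shNC libraries within chr9:136523180-136549709. That stretch had 0 kb in each shTDP43 library, against 5.58, 5.69 and 4.43 kb in shNC replicates 1 to 3. Inside its shNC-only regions that 0 is fixed by the rule. Over the whole gene, 0.422, 5.50 and 4.47 kb were covered in shTDP43, against 28.8, 30.0 and 26.7 kb in shNC. The treated shTDP43 library had 1.16 kb in the stretch and the treated shNC library 0.423 kb, so a hybrid antibody signal was called there in treated shTDP43 material. This treated signal lay outside the 3 NOTCH1 regions and the NALT1 region.

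NOS1, the neuronal nitric oxide synthase gene, held 3 of the 4 regions in its span present in all 3 shNC libraries. Peaks covered 0, 0.996 and 0 kb in shTDP43 replicates 1 to 3, against 11.4, 9.39 and 12.1 kb in shNC replicates 1 to 3. The longest, chr12:117264095-117267213, had 3.12, 3.12 and 1.28 kb in shNC. NOS1 had the lowest ratio outside its regions of the 42 genes, 0.332 ± 0.575 kb in shTDP43 against 6.58 ± 2.30 kb in shNC (SD, n = 3 each).

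Several RNA- and DNA-binding proteins were among the 42. MBNL2, a splicing regulator, held 6 of its 10 regions present in all 3 shNC libraries, with 0.887, 0.683 and 1.17 kb in shTDP43 and 13.9, 10.3 and 10.1 kb in shNC. Its treated libraries had 2.65 kb in shTDP43 and 2.75 kb in shNC, more than any untreated shTDP43 library. At chr13:97196628-97197067 both treated libraries had 0.440 kb, against 0.316, 0.440 and 0.365 kb in untreated shNC. ZBTB7C, a BTB zinc finger gene, held 6 of 8, with 0.907, 2.70 and 3.94 kb in shTDP43 and 25.8, 16.8 and 16.4 kb in shNC. ZNF469 held 4 of 10, with 1.30, 9.23 and 5.75 kb in shTDP43 and 28.5, 29.3 and 17.5 kb in shNC. These lengths include the shNC-only regions, where the rule fixes shTDP43 at 0. Outside them the shTDP43 and shNC means were 0.912 and 7.49 kb in MBNL2 and 2.52 and 11.8 kb in ZBTB7C. In ZNF469 they were 5.43 and 20.3 kb. The libraries did not overlap there in these genes, as in 37 of the 42, and this was not tested. Over whole spans, which include any shNC-only regions, 13.9% of all coding genes with at least 1 kb in shNC showed non-overlap. Among those over 200 kb, as MBNL2, ZBTB7C and ZNF469 all are, the share was 30.4%.

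A channel gene and 3 other genes of membrane proteins held 3 or 4 regions each. KCNT1, a sodium-activated potassium channel gene, held 4 regions. Over the gene it had 17.9, 27.3 and 28.5 kb in shTDP43 replicates 1 to 3, against 56.7, 53.2 and 49.4 kb in shNC replicates 1 to 3. The stretch from the first to the last region (chr9:135712153-135760931) had 0, 0.374 and 0.288 kb in shTDP43. In shNC it had 19.3, 16.8 and 13.2 kb, and inside the 4 regions the rule fixes untreated shTDP43 at 0. The treated shTDP43 library had 0.282 kb inside those regions, and the treated shNC library had 0 kb in the gene. SORCS1, a sorting receptor gene, held 4, with 10.1, 16.5 and 13.7 kb in shTDP43 and 42.4, 28.7 and 35.0 kb in shNC over the gene. TMEM108 held 3, with 4.44, 7.39 and 4.43 kb in shTDP43 and 25.4, 23.1 and 21.7 kb in shNC. In these 3 genes no shTDP43 library reached the lowest shNC library, over the whole gene or outside the shNC-only regions, and this was not tested. CLMN, with 3 regions, had 0, 0.796 and 1.22 kb in shTDP43 and 9.15, 5.49 and 5.90 kb in shNC.

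The other genes with 4 regions were EXOC4, GSE1, NAV2, TTC7A and ZNF704, and AGAP1 held 5. Those with 3 that have not been described were ARID1B, ASTN2, CAMTA1, CAPN5, CHD6, CHST3, EPB41L5, GAB2, HMCN2, JAKMIP1, MSI2, MYT1L, RBM20, RPA3, SLIT3, TBL1XR1, TCF4, TNS1, TPST1, TRIB2 and TSPAN18. CHST3, MSI2, MYT1L, TBL1XR1 and YEATS2 were the 5 of the 42 whose shTDP43 and shNC libraries overlapped outside the regions. In MSI2, an RNA-binding protein gene, 148, 211 and 240 kb outside the regions were covered in shTDP43, against 273, 239 and 239 kb in shNC.

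Gene lists give the same regions by function, and every count below is to be read against the 5.73% of coding genes with a merged region that held one. Of 58 axon guidance genes with a merged region, 7 held an shNC-only region (12.1%), with 36 regions in all, of which PLXNA4 had 27. The 58 genes had a median length of 51.4 kb, against 29.8 kb for all genes with a region, and the share of genes with such a region grew with length. The others were the Slit ligand genes SLIT3 with 3 and SLIT1 with 1, the netrin receptor gene UNC5C with 2, and EPHA2, SEMA3F and SEMA5B with 1 each. The SEMA3F region, chr3:50171258-50173991, had 2.14, 1.08 and 0.650 kb in shNC, and the other 8 outside PLXNA4 had means under 1 kb. Of 17 receptor-type tyrosine phosphatase genes 3 held one (17.6%), PTPRE with 5, PTPRU with 2 and PTPRR with 1. Those 17 genes had a median length of 190.3 kb. Of 17 voltage-gated calcium and sodium channel genes with a merged region, 4 held one (23.5%), and the 17 had a median length of 152.9 kb. Among the calcium channel genes, CACNA1C held 2 and CACNA1G and CACNA2D1 1 each, with mean lengths of 1.08 kb or less. None of 24 voltage-gated potassium channel genes held one.

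Of 31 imprinted genes with a merged region, DIO3, KCNK9, SGCE and ZIM2 held 1 region each (12.9%, against 5.73% of all coding genes with a region). Outside DIO3 these were short, with means of 1.63 ± 0.604 kb in KCNK9, 0.537 ± 0.216 kb in SGCE and 1.09 ± 0.197 kb in ZIM2 (SD, n = 3 shNC libraries). Of 36 genes of BMP, TGF-beta and hedgehog signalling, ACVR2A, EVC2 and GDF10 held 1 each (8.33%). GDF10, a growth factor gene, had 1.92, 2.25 and 1.33 kb in shNC at chr10:47300075-47303153, 91.0 kb from any shTDP43 peak. The EVC2 region was likewise isolated, 174.6 kb from any shTDP43 peak, and that in ACVR2A lay 0.518 kb from one.

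Genes known for TDP-43 or R-loop biology are given next. Of 33 genes with known TDP-43 cryptic exons, 2 held a region (6.06%, against 5.73% of all coding genes with a region), CAMK2B with 0.450, 1.45 and 0.529 kb and KALRN with 1.10, 0.803 and 0.496 kb in shNC replicates 1 to 3. Of 27 ALS genes with a merged region, 2 held one (7.41%). Among them SPG11 held 1, with 0.397, 0.360 and 1.09 kb in shNC, 0.423 kb from a shTDP43 peak. Of 26 R-loop resolution genes with a merged region, 2 held one (7.69%). Among them BRCA1, a DNA repair gene that also limits R-loops, held 1. Its region had 0.808, 0.566 and 0.470 kb in shNC and lay 0.593 kb from a shTDP43 peak. Of 21 adrenergic identity genes 1, EYA1, held a region (4.76%), with a mean of 0.382 ± 0.032 kb (SD, n = 3), and of 28 mesenchymal identity genes none did.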

How the data were processed

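DRIP-seq peak lists of 8 libraries were analysed, 1 list per library and none pooled, per the labels and the peak names. Per the submitters' processing notes, hg38 was the build and the tools included MACS2 2.2.6, Bowtie2 2.4.4 and SAMtools. The sources used here give neither the settings of the peak calling nor its control. For every peak the authors deposited a fold (a ratio to the local background), a −log10 p and a −log10 q. The lowest deposited −log10 q lay between 1.302 and 1.313 in the 8 lists. The deposited score column follows the −log10 q and was not used further.

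Peaks of the 6 untreated libraries on chromosomes 1 to 22 and X were merged with a gap of 0 bp, and 1 bp of peak made a library present. Lengths under peaks were summed per region, gene and library, unscaled, so they move with depth. Summit pileup and background were solved from the fold and −log10 p of each summit. Of 5000 summits tried per untreated library, 99.24% to 99.86% gave a whole pileup within 0.001 of the printed value. Depth in reads is unknown. Genes, promoter windows and microRNAs came from RefSeq tables (GRCh38.p14). No genome sequence, exon or repeat annotation was used. Interval sums were tested on simulated data with Python 3.11.15, where 0 of 259 regions differed from a brute-force count.

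Named regions were the 15 longest by mean shNC length, the 10 strongest by weakest shNC −log10 q (20 regions in all) and those in genes with at least 3. Named genes were those overlapped by these regions, genes of the lists, and up to 10 whose promoter window lay wholly inside a region. CLMN, OPRM1 and the other genes shown in full among the 42 were picked from that rule's names after their values were seen. Regions, gene lists and this rule were chosen with earlier results of these data known. Alternatives were stricter −log10 q thresholds, equal list lengths, merging within 1 kb, presence from 25% of a region, a 1 kb distance from shTDP43 peaks, leaving out regions with a treated shNC peak, and leaving out each replicate. Shares have 95% Wilson intervals, and limits for a count of 0 use 3 counts. Some results of the gene lists are not reported here.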

Additional observations from a re-analysis of the deposited data

How the results depend on the processing

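With −log10 q of at least 5 in all lists, 832 regions met the rule (median width 1779.5 bp, 79.9% in coding spans, 20.3% at gene ends, 0.841% with a treated shTDP43 peak) and 41 met the mirror rule. At 10 there were 379 (3096 bp, 31.7% at gene ends, 5.28% with a treated shNC peak) and 24. Requiring 5 of shNC peaks alone, against all shTDP43 peaks, left 104 regions (1446.5 bp, 66.3% in coding spans, 18.3% at gene ends), of which 0% had a treated peak of either genotype, allowing up to 2.88%. With the strongest 57204 peaks of every list the median width was 1183 bp and the gene-end share 15.4%. Merging within 1 kb gave 1707 bp, 117 mirror regions and 2.95% with a treated shNC peak. Presence from 25% gave 1134.5 bp and 14.8% at gene ends. Without regions within 1 kb of a shTDP43 peak, 723 remained (1014 bp). Without those with a treated shNC peak, 0.404% had a treated shTDP43 peak, and the treated shNC share is then 0 by construction. The mirror count was not defined for the last 2 settings or for shNC peaks alone.

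Leaving out 1 library, or shTDP43 replicate 1 with 1 shNC library (added after seeing the data), gave 1465 to 3889 regions, 407 to 3227 mirror regions, median widths of 649 to 1016 bp, 77.1% to 80.8% in coding spans and 8.92% to 13.8% at gene ends. Treated shNC peaks then overlapped 1.26% to 3.43% and treated shTDP43 peaks 0.671% to 2.55%. The rise in counts follows from asking for fewer libraries. Of the 20 longest or strongest regions, 18 still met the rule at −log10 q of 5, 5 at 10, 20 with equal lists, 16 when merged within 1 kb, 19 with presence from 25% and 20 in every leave-out setting. The strongest were chosen by their weakest shNC −log10 q, and stricter thresholds also remove shTDP43 peaks. Leaving out a library loosens the rule. The threshold and leave-out counts are thus largely fixed by the choice of regions and are no check of them.

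No paired analysis was possible because no result comes from a test. A region just under the threshold in a shallow library counts as absent, and the lists cannot show how far below it lay.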
